A study of Ovis aries with 17 samples.

Results

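CR2, complement receptor 2 or CD21, was followed across 6 sheep cell subsets with the 1 probe that carries its name, out of 11311 genes or gene identifiers that could be compared. CR2 was selected on its measured log2 signal, which was higher in B lymphocytes than in the other subsets on these same arrays. Its levels and the contrast of B lymphocytes with the rest are therefore described without a test. RNA was hybridised to 17 one-colour arrays, 1 array per RNA sample. The subsets were spleen B lymphocytes (B, 4 arrays), blood plasmacytoid dendritic cells (pDC, 3 arrays), spleen macrophages (MP, 3 arrays), dendritic cells grown in culture with GM-CSF (MoDC, 3 arrays), blood XCR1- dendritic cells (cDC2, 3 arrays) and blood XCR1+ dendritic cells (cDC1, 1 array).

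The methods describe the sheep as females of the Prealpe breed, and neither an age nor a treatment is named for any subset. B were sorted with an antibody to ruminant B cells and MP with an antibody to CD14. Cells stained by the B cell antibody or by anti-CD11b were left out of the pDC, cDC2 and cDC1 gates. How many such cells remained after the exclusion was not measured here. No such exclusion was described for MP. The MoDC came from separate cultures, and the study's text names bone marrow as their source. Sorts with too little RNA were pooled over animals, so an array is not always 1 animal, and p-values measure the spread between arrays. In bulk RNA, fewer cells that carry a transcript and less transcript per cell cannot be told apart.

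CR2 is a surface receptor for fragments of complement C3 that stay attached to antigen. On B lymphocytes it is part of a coreceptor that lowers the amount of antigen needed to activate the cell. Follicular dendritic cells, which hold antigen in lymphoid follicles, carry it too. Its gene lies among other regulators of complement. In the list of RefSeq genes for the assembly ARS-UI_Ramb_v3.0 the gene before it is CD55, which protects cells from complement, and C4BPA stands 5 genes before it. Neither had a probe with its name.

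The CR2 probe is 60 bases long with a GC content of 35%, and its first 30 bases are shown because every CR2 value rests on this oligonucleotide. The next lines also give the first 30 of 60 bases of the 5 probes whose pattern over the 17 arrays was most like that of CR2. These 5 carry sequence identifiers without a gene symbol, and their genes were not looked up.
CR2, BL_OTH_F001287: ggcgtcaagttgcaattctgaagctttcac
A_70_P024961: aggactcctgactatattgtgtatgacatt
A_70_P067131: tatacagagacaacaactcagtggggaaat
A_70_P042351: cagtgcttcagataagaagaagaaacaaga
BL_OCA_F000640: aatgcttgtcctaatcagacctttgcctta
A_70_P009326: actgtgatcataatttttgtggtaatttct
The longest run of bases that the CR2 probe shared with any of the 15059 other probes was 13 on the same strand and 12 on the opposite strand. The probe was printed as a single spot per array, so no second probe checks it.

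CR2 was bright in B and dim everywhere else. The background-corrected signal of the CR2 spot was 8206, 4796, 9006 and 11471 on the 4 B arrays. On the other 13 arrays it lay between 6.58 on the cDC1 array and 365 on MoDC replicate 3. The signals of B and of the other subsets did not overlap. On the scaled values used from here on, the lowest B array was above all other arrays for 2.81% of all genes. The median pixel of the CR2 spot was 169 to 230 times its local background in B and 1.13 to 8.6 times elsewhere. No spot was saturated, so the B signal was not capped.

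To compare arrays, the log2 signal was taken relative to the 75th percentile of the same array, so that 0 is a signal equal to that percentile. The percentile itself ranged from a signal of 194 on MP replicate 2 to 688 on MoDC replicate 2, and 61.1% to 80.2% of spots per array were well above background. On this scale the CR2 level in B was 4.22, 4.23, 4.25 and 4.20, with a mean of 4.22 ± 0.022 (SD, n = 4). The 4 B arrays lay on 4 slides and reached 98.2% to 102% of their mean. Of the 11311 genes, 1 had a smaller SD than CR2 among the B arrays, where the median gene had an SD of 0.44. This tightness depended on the scaling: the SD of CR2 in B was 0.036 to 0.21 under the other 5 ways of making the values.

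**Figure D1:**
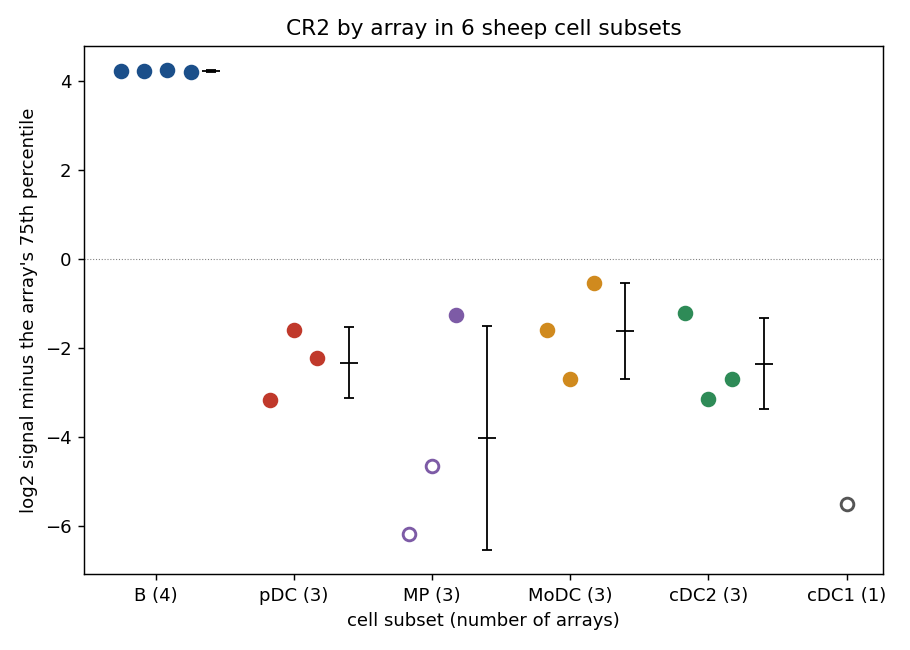
CR2 log2 signal relative to the array's 75th percentile (y axis) on each of 17 arrays, by cell subset (x axis). Filled points were well above background, open points were not, and the bars beside the points give mean ± SD for subsets with more than 1 array. The 4 B arrays sit between 4.20 and 4.25, above the highest other array at -0.53.

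In MoDC the CR2 level was -1.60, -2.69 and -0.53, a mean of -1.60 ± 1.08 (SD, n = 3). In pDC, the dendritic cells known for interferon production, it was -3.16, -1.60 and -2.21, a mean of -2.32 ± 0.79 (SD, n = 3). In cDC2, a subset of conventional dendritic cells, it was -1.20, -3.15 and -2.69, a mean of -2.35 ± 1.02 (SD, n = 3). All 9 of these arrays had a CR2 signal well above background, and the ranges of the 3 subsets overlapped.

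MP were split. Their CR2 levels were -6.17, -4.65 and -1.26, a mean of -4.03 ± 2.51 (SD, n = 3), and the signal was well above background on replicate 3 alone. The SD of CR2 in MP was larger than that of 99.4% of genes. In cDC1, the conventional subset that carries XCR1, the single array gave -5.50, not well above background.

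Ordered by mean, the CR2 levels ran from B to MoDC, pDC, cDC2, MP and cDC1. Beneath B the neighbours in this order differed by less than the larger SD of the pair, and cDC1 has no spread of its own. With normexp, a model-based background correction of the spot medians, the cDC1 array was instead the highest outside B, at -0.20. Within that array CR2 kept its place, at the 24.6th percentile of probes with normexp and the 23.7th without, and normexp left an SD over its probes of 0.87 against 1.75 to 2.43 on the other arrays. On the scale of the B mean, CR2 was at 0.83% to 3.71% in MoDC, 0.597% to 1.77% in pDC, 0.602% to 2.32% in cDC2, 0.0745% to 2.24% in MP and 0.118% in cDC1. MoDC replicate 3, cDC2 replicate 1 and MP replicate 3 were the highest arrays outside B, each above the others of its subset.

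The difference between the B mean and the mean of another subset, in log2, was 5.83 for MoDC, 6.55 for pDC, 6.57 for cDC2 and 8.25 for MP. These correspond to 56.9-fold, 93.6-fold, 95.2-fold and 304-fold higher CR2 in B. With normexp the log2 differences were smaller, at 5.30, 5.56, 5.71 and 5.92. For MP only 1 of 3 arrays measured CR2 above background. With the MP arrays below background raised to the lowest signal measured above it where that was higher, the ratio became 195-fold. For cDC1 the same floor gave a bound, at least 494-fold higher in B, which holds for this scaling only: the log2 difference of 9.73 between B and cDC1 was 8.11 with the authors' values and 4.13 with normexp, both under the bound. The lowest B array exceeded the highest other array by 4.73 in log2, or 26.5-fold. This gap was the widest of all genes, as the choice of CR2 implies, and the next gene had 3.83.

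Each of slides 1 to 3 held 1 array of B, pDC, MP and MoDC, and slide 4 held B replicate 4 with all cDC2 and cDC1 arrays. Within slides the difference of B from MoDC was 5.81, 6.92 and 4.78 in log2. That of B from pDC was 7.38, 5.83 and 6.46. That of B from MP was 10.38, 8.89 and 5.51, the last on slide 3 with MP replicate 3. On slide 4 B exceeded the mean of the 3 cDC2 arrays by 6.55 and the cDC1 array by 9.70. The B value exceeded the others on every slide, as it must where the lowest B array lies above all other arrays. The differences of 10.38, 8.89 and 9.70 rest on CR2 signals of MP replicates 1 and 2 and of cDC1 that were not well above background.

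**Figure D2:**
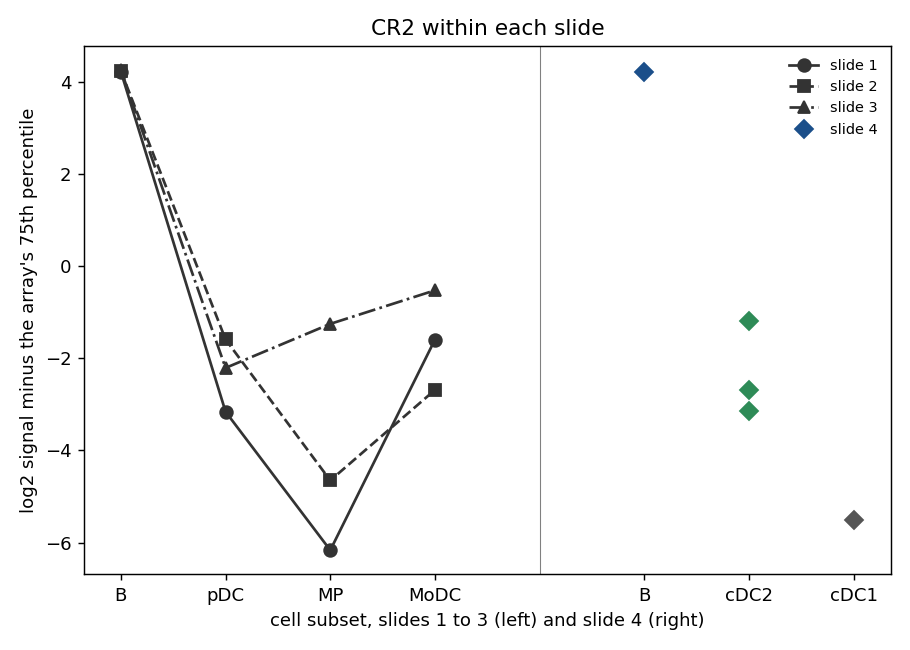
CR2 log2 signal relative to the array's 75th percentile (y axis) by subset (x axis), with arrays of slides 1, 2 and 3 joined by lines on the left and the 5 arrays of slide 4 on the right. B is highest on each slide, and MP ranges from -6.17 on slide 1 to -1.26 on slide 3.

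Whether CR2 differed among the subsets other than B was tested with limma, a linear model fitted to all genes with moderated variances. A call required a p under 0.05 after Benjamini-Hochberg adjustment over the 11311 genes and at least a 2-fold difference. CR2 was chosen as a gene high in B, and this choice favours genes that are low in all other subsets. In this fit, which leaves the slide out, none of the 6 pairs was called for CR2. Of them 1, MP against MoDC, had an unadjusted p under 0.05, and it was called with slide as a block, as given below. The share of all genes called was 25.9% for pDC against MP, 33% for pDC against MoDC, 20.2% for pDC against cDC2, 25.9% for MP against MoDC, 11.2% for MP against cDC2 and 33.4% for MoDC against cDC2.

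The largest of these differences was that of MP from MoDC. CR2 was lower in MP by a log2 difference of -2.42 with a 95% interval from -4.44 to -0.40 (limma, adjusted p = 0.071). With slide as a block, which sets arrays of 1 slide against each other, the limma adjusted p was 0.048, and with the replicate number as a block it was 0.072. The difference shrank to -1.55 with the authors' values (limma, adjusted p = 0.10) and to -0.62 with normexp (limma, adjusted p = 0.35). Without MP replicate 3 the difference was -3.81 with a limma adjusted p of 0.0018. The MP arrays that remain were not well above background for CR2. The same array also decided the other pairs with MP: without it, pDC exceeded MP by 3.09 (limma adjusted p = 0.0050) and MP minus cDC2 was -3.06 (limma adjusted p = 0.015), where all arrays gave 1.70 (interval -0.32 to 3.72, adjusted p = 0.22) and -1.68 (interval -3.69 to 0.34, adjusted p = 0.27).

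Among the subsets with CR2 above background on all arrays, pDC and cDC2 had a log2 difference of 0.025 with an interval from -1.99 to 2.04 (limma, adjusted p = 0.99). pDC minus MoDC was -0.72, with an interval from -2.74 to 1.30 (limma, adjusted p = 0.59). MoDC minus cDC2 was 0.74, with an interval from -1.27 to 2.76 (limma, adjusted p = 0.56). Each of these intervals holds differences of more than 2-fold in either direction, so these arrays do not show that the subsets had the same CR2 level.

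**Figure D3:**
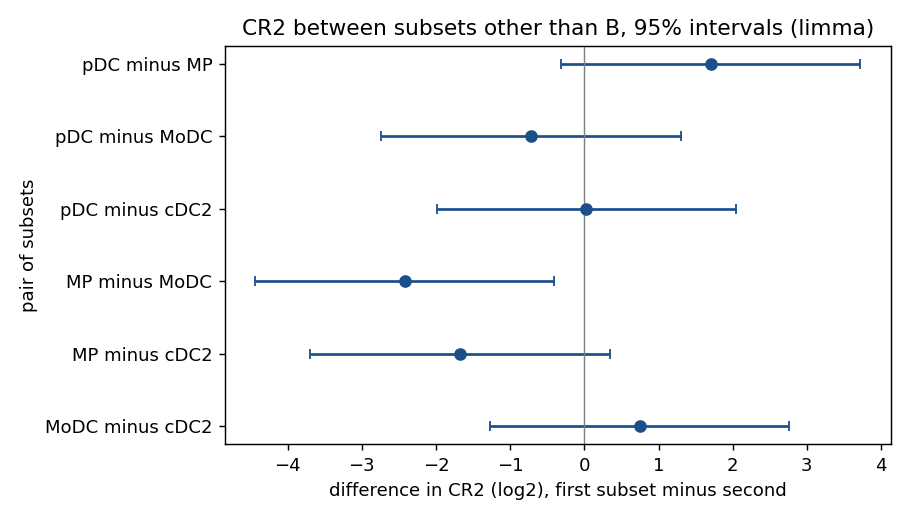
Difference in CR2 (x axis, log2, first subset minus second) for the 6 pairs among pDC, MP, MoDC and cDC2 (y axis), with 95% intervals from limma. The interval of MP minus MoDC, from -4.44 to -0.40, is the only one that leaves out 0. No pair passed the adjusted threshold in this fit, which leaves the slide out.

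The labels of the subsets were set beside the named markers on the array. CD14, read on the 1 of its 2 probes with the highest sum, was 5.29 to 6.84 in MP and 5.87 to 6.75 in MoDC. It was also 3.58 to 3.69 in cDC2 and 3.02 in cDC1, against -0.20 to 0.15 in pDC and -1.52 to -0.80 in B. For the 4 measured monocyte and macrophage markers (CD14, CSF1R, ITGAM and LYZ) the log2 of the summed linear signals, which the brightest probes set for the most part, was 7.85 to 8.17 in MP, 6.22 to 6.79 in MoDC, 5.66 to 5.90 in cDC2, 5.05 in cDC1, 0.84 to 2.06 in B and 0.63 to 1.50 in pDC. XCR1 and CLEC9A, which mark cDC1, were 2.61 and -1.31 in cDC1, and their highest values elsewhere were -1.58 and -5.97. CADM1, an antigen of the cDC sort, and BATF3, a transcription factor of cDC1, were 2.44 and 6.24 in cDC1. Their highest values elsewhere were 0.32 in pDC and 2.75 in cDC2, and BATF3 was also 1.50 to 2.46 in MoDC and 1.64 to 2.36 in MP. FLT3, the receptor for a dendritic cell growth factor, was 2.69 in cDC1, 1.26 to 1.50 in cDC2 and at most -0.16 elsewhere. TCF4, a transcription factor of pDC, was 0.71 to 1.78 in pDC but also 0.55 to 1.09 in B and 0.53 to 0.83 in cDC2. SIRPA (CD172), the other antigen of the cDC sort, was not measured above background on any array. LTF, a granulocyte gene, was highest in MoDC at -0.20 to 1.54, and HBB, of red cells, was highest in cDC1 at 0.83.

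Markers of other cells were read on the same arrays. No gene of the B cell marker list had a probe with its name. Most probes carry an identifier without a gene symbol and were not looked up, so B cell genes among them were not read. A B cell admixture in the other subsets was therefore not measured here by such markers. Of the 10 listed T and NK cell markers, 5 had a probe (CD3D, CD3E, CD247, CD28 and GNLY), and 4 of these 5 were well above background on every B array. The log2 of their summed linear signals, which the brightest probes set for the most part, was 2.86 to 3.25 in B, 5.48 to 5.62 in pDC, 2.14 to 2.56 in cDC2, 0.13 to 1.35 in MP, -1.06 to 0.43 in MoDC and 1.51 in cDC1. Within MP these markers did not move together. CD3D (-2.23, -3.22 and -0.92) and CD3E (-0.0038, -0.71 and 0.92), chains of the CD3 complex of T cells, were highest on replicate 3, the array with the high CR2. CD247, another chain of that complex, was highest on replicate 1 (-3.28, -4.78 and -3.65). GNLY (-6.43, -1.82 and -4.75) and CD28 (-6.24, -4.19 and -7.30) were highest on replicate 2. CD14, the antigen of the MP sort, was 5.29, 6.84 and 6.23 on the same arrays. Whether other cells carried the CR2 signal of MP replicate 3 was not tested. Of the follicular dendritic cell list PRNP alone had a probe with its name, a gene that many cells express, so these cells were not assessed.

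The partners of CR2 were not followed, because probes without a gene name were not looked up. None of the 42 other genes listed for the B cell receptor, its coreceptor and the B lineage had a probe with its name. Of 52 other complement genes, 2 did: ITGAM (CD11b) and ITGB2 (CD18), the chains of complement receptor 3, which binds a fragment of C3 on phagocytes. ITGAM and ITGB2 were therefore the named genes against which the pattern of CR2 could be set within the complement system.

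ITGAM ran opposite to CR2 between B and the CD14-sorted or cultured cells. Its level was -3.98, -4.86, -5.37 and -4.11 in B, with 3 of 4 arrays well above background. It was -2.28, -1.59 and -1.35 in MP and -0.85, -1.21 and -1.67 in MoDC. B did not overlap either subset: ITGAM was lower in B by a log2 difference of -2.84 ± 0.37 (SE) against MP (limma, adjusted p = 4.3e-05) and of -3.34 ± 0.37 (SE) against MoDC (limma, adjusted p = 5.1e-06). Both calls held but were smaller with the authors' values, at -1.87 and -2.54, and with normexp, at -1.24 and -1.52. The share of all genes called was 24.3% for B against MP and 36.1% for B against MoDC.

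In pDC no array had ITGAM well above background, and in cDC2 it was -5.04, -4.44 and -4.77. Anti-CD11b was used to leave cells out of the pDC, cDC2 and cDC1 gates. The ITGAM comparisons with these subsets are therefore listed as values and not as findings about the cells. The part of the gate in these levels was not tested, and B, for which no such exclusion was described, had a mean of -4.58 beside -4.75 in cDC2. On the measured values, below background in pDC, ITGAM differed by -4.97 for pDC minus MP (limma, adjusted p = 5.6e-07). For pDC minus MoDC the difference was -5.46 (limma, adjusted p = 8.8e-08). With pDC raised to its floor, ITGAM was at least 11.8-fold higher in MP and at least 16.7-fold higher in MoDC. For B and cDC2 the same floor gave at least 1.65-fold and 1.47-fold, under the 2-fold that a call requires. These bounds hold for this scaling only: pDC minus MP was -2.41 in log2 with the authors' values and -1.32 with normexp, and pDC minus MoDC -3.08 and -1.60. ITGAM was also called higher in B, where 3 of 4 arrays measured it, than in pDC (limma, adjusted p = 0.0018). The call was lost with normexp, where the log2 difference was 0.086 (adjusted p = 0.98), and with the authors' values, where it was 0.54 (adjusted p = 0.077). The share of all genes called was 9.22% for B against pDC. It was called lower in pDC than in cDC2 (limma, adjusted p = 0.0024), which was lost with slide as a block (adjusted p = 0.43), with normexp (-0.033 in log2, adjusted p = 0.97) and with the authors' values (-0.45 in log2, adjusted p = 0.12). ITGAM was higher in MP than in cDC2 by 3.01 (limma, adjusted p = 0.00025) and in MoDC than in cDC2 by 3.51 (limma, adjusted p = 1.5e-05), which fell to 1.29 and 1.57 with normexp. It was not called between B and cDC2 or between MP and MoDC.

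ITGB2, the chain shared by several leukocyte integrins, was well above background on all 17 arrays. Its level was 3.58, 3.39, 2.92 and 3.82 in B and 3.35, 4.28 and 3.88 in pDC. It was 5.57, 5.57 and 5.47 in MP, 6.04, 5.63 and 3.93 in MoDC, 4.54, 4.49 and 4.54 in cDC2 and 5.38 in cDC1. MP and B did not overlap, and ITGB2 was lower in B by a log2 difference of -2.11 ± 0.42 (SE) (limma, adjusted p = 0.0015). MoDC replicate 3 stood below the other 2 MoDC arrays in ITGB2, while it was the MoDC array with the most CR2.

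ITGB2 was also called lower in B than in MoDC, by -1.77 (limma, adjusted p = 0.0034), lower in pDC than in MP, by -1.70 (limma, adjusted p = 0.0098), and lower in pDC than in MoDC, by -1.36 (limma, adjusted p = 0.028). The call for pDC against MP was lost without pDC replicate 1 (limma, adjusted p = 0.0502). The call for pDC against MoDC was lost with quantile normalization (limma, adjusted p = 0.14), with the percentile over probes measured on all arrays (0.084), with only the arrays of the pair (0.18) and without any 1 of pDC replicates 1 and 3 and MoDC replicates 1 and 2. ITGAM passed the test in 8 of 10 pairs, of which 6 involve pDC or cDC2 and so the gates with anti-CD11b, and ITGB2 passed in 4. The share of all genes called ran from 9.22% for B against pDC to 36.1% for B against MoDC over these 10 pairs. Between B and cDC2 ITGB2 differed by -1.10 (limma, adjusted p = 0.067). This difference passed the threshold with the replicate number as a block (limma, adjusted p = 0.048), with normexp (0.041) and with the authors' values (0.010), and 23.1% of all genes were called in that pair.

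**Figure D4:**
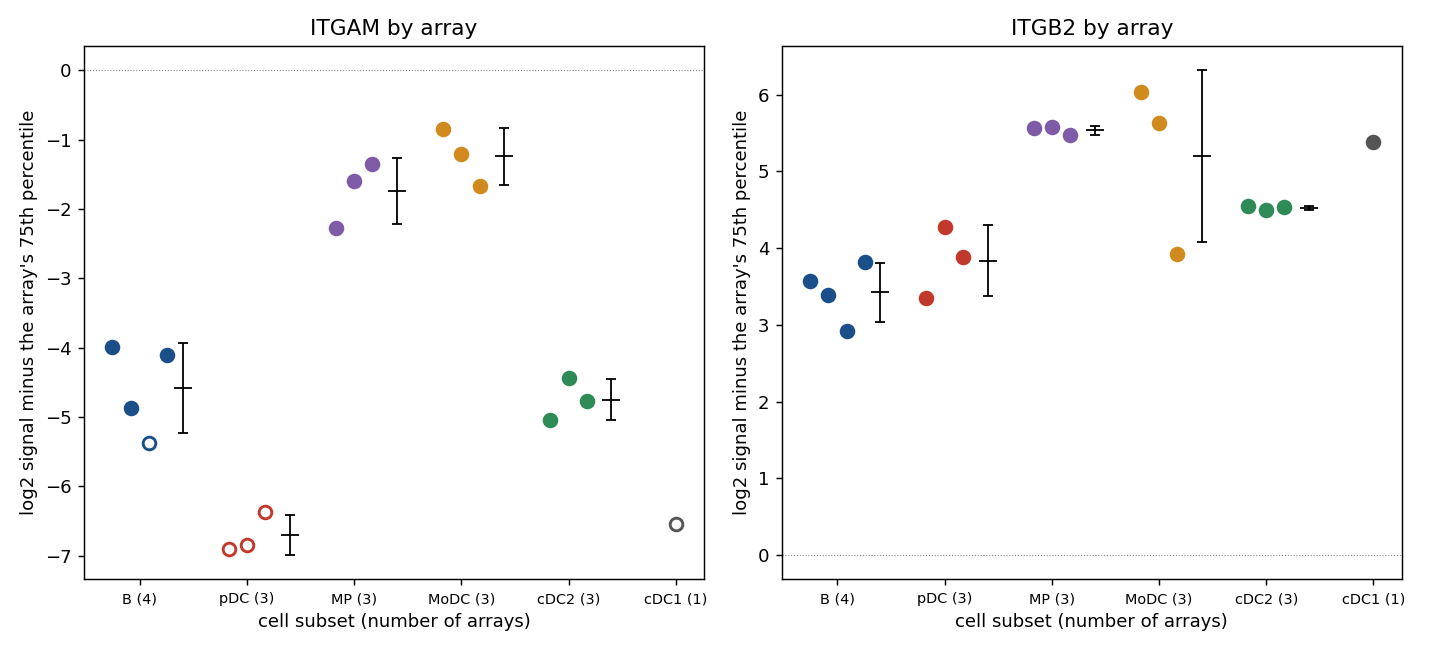
ITGAM (left) and ITGB2 (right) log2 signal relative to the array's 75th percentile (y axis) on each of 17 arrays, by subset (x axis). Filled points were well above background, open points were not, and bars give mean ± SD. MP and MoDC hold the highest ITGAM arrays, from -2.28 to -0.85, and ITGB2 was between 2.92 and 6.04 everywhere.

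The genes most like CR2 were found by Pearson's r of their log2 values with CR2, among 11310 genes. Over 17 arrays the highest r was 0.94 for the probe A_70_P024961, followed by 0.93 for A_70_P067131, 0.93 for A_70_P042351 and 0.90 for both BL_OCA_F000640 and A_70_P009326. These 5 were the only genes above 0.9, and none has a gene name. The arrays share their slides and scaling. Without the B arrays the same 5 probes had r of 0.79, 0.65, 0.76, 0.62 and 0.40 with CR2, in the same order. These r include CR2 values of MP replicates 1 and 2 and cDC1 that were not well above background.

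The level of A_70_P024961, the probe most like CR2, was 0.55, -0.22, -0.58 and 0.29 in B, and its highest value elsewhere was -2.81 on MoDC replicate 3, which is also the highest array outside B for CR2. No MP array, nor the cDC1 array, had it well above background. A_70_P067131 was measured on all arrays, at 4.05 to 4.26 in B and 1.15 to 2.90 elsewhere.

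**Figure D5:**
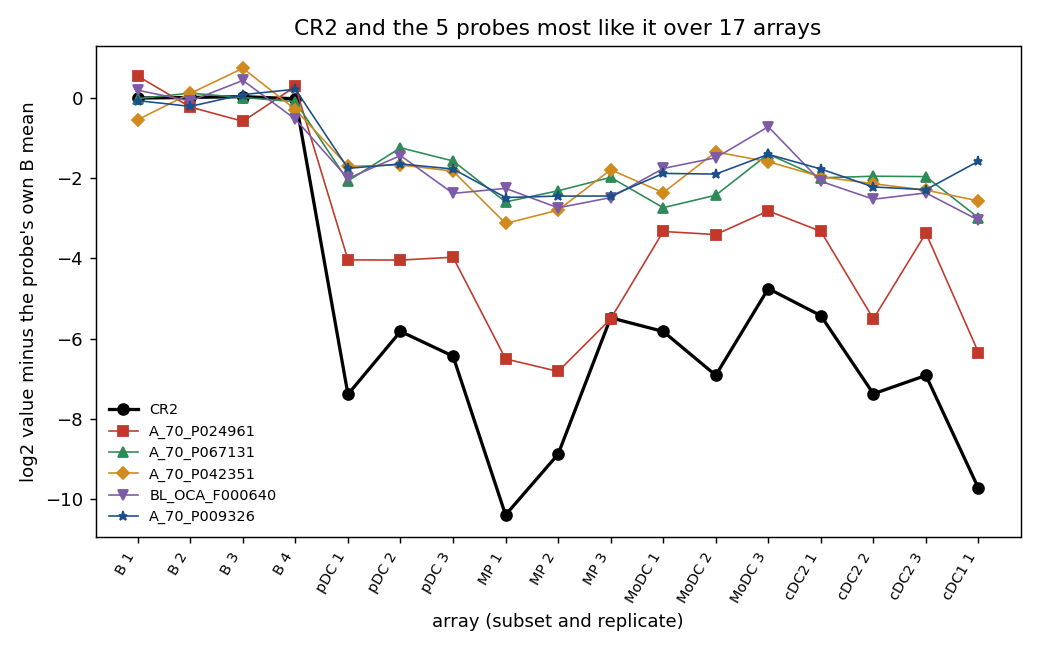
CR2 (black) and the 5 probes with the highest r with it, each as log2 value minus its own mean over the 4 B arrays (y axis), by array (x axis). All 6 probes lie below their B mean on the 13 other arrays. CR2 on MP replicates 1 and 2 and cDC1, A_70_P024961 on MP and cDC1, and A_70_P042351 on MP replicate 1 were not well above background. The falls there are therefore bounded by each probe's B level and are not ranked.

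Among genes with a symbol the likeness was weaker. PRKAA2, a catalytic subunit of the energy sensor AMPK, had r = 0.76 and GH, growth hormone, r = 0.73. Outside B PRKAA2 was well above background on 0 arrays and GH on 1, so both passed the filter through B alone, which fixes the split between B and the rest, and their r is no evidence of likeness. BCAT1, a branched-chain aminotransferase, had r = 0.74. BCL2, which protects cells from apoptosis, had r = 0.64, with a mean level of 2.67 in B and 2.40 in pDC.

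Within the 13 arrays other than B the genes most like CR2 were different ones: the 2 sets of 5 probes shared none. The lowest of these CR2 values, on MP replicates 1 and 2 and cDC1, were not well above background. The r values over the 13 arrays include them and are not read as co-expression. The highest r was 0.82 for BL_OCA_F000414, then 0.81 for A_70_P036821 and A_70_P046926, 0.80 for BL_OTH_R000475 and 0.79 for A_70_P058621. Among genes with a symbol, IL2RA, the alpha chain of the interleukin 2 receptor, came first with r = 0.69 over these arrays and 0.27 over all 17. It was followed by BAC5 (r = 0.65), an antimicrobial peptide gene, DNMT1 (r = 0.62), a DNA methyltransferase, SC5 (r = 0.62) and CAPN3 (r = 0.58), a calpain protease. A_70_P024961, the gene most like CR2 over all arrays, had r = 0.79 over the 13. MoDC replicate 3 was the highest array outside B for CR2 and also for BL_OCA_F000414, A_70_P036821, BL_OTH_R000475, IL2RA, SC5 and CAPN3.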

How the data were processed

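Sheep RNA was amplified, labelled with Cy3 and hybridised to a custom ovine Agilent array. The labels gave each array its subset and replicate number. The authors read the spots with Agilent Feature Extraction, version 10.7.3.1 on slides 1 to 3 and 10.10.1.1 on slide 4 per the file headers. The deposited intensity is background-corrected, on a linear scale and not normalized between arrays. Other deposited columns are flags that mark spots as well above background, saturated or outlying. The authors' series table holds deposited log2 values whose method is not stated in the file. Its rows were assigned to probes sorted by name, an order in which 17 of 17 columns correlated best with their own array, and it was used only as an alternative, shifted so that 0 is each array's 75th percentile.

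Of 15744 spots, 536 were controls. Outlier spots were left out, and 14842 of 15060 probes were used. Values are log2 intensity minus the array's 75th percentile over spots that are not controls. The filter asked that, in at least 1 subset, over 50% of a probe's spots be well above background on each array. A gene with several probes was represented by the one with the highest sum. A symbol was known for 417 genes, so that 2.92% of probes were named, 270 of the 11311 genes tested. Groups were fitted with limma 3.58.1 in R 4.3.3 on all 17 arrays, and the pipeline was tested on simulated data. cDC1 has 1 array and entered no tested pair. The number of arrays limits the precision.

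The gene, the lists and the comparisons were chosen with earlier results of these data known. Genes were named by rule: CR2, the measured members of the complement, B cell and marker lists, and the 5 most like CR2 with and without a symbol requirement over 17 and over 13 arrays. An item that this rule names is not reported here. Other probes and genes were not looked up. Replicates 1 to 3 of B, pDC, MP and MoDC shared a slide by number. Their deviations from the subset means correlated at 0.10 to 0.56 in all 18 such pairs, so the numbers pair these arrays, but not those of cDC2, which lie on slide 4. The alternatives were quantile normalization, median centring, a percentile over probes measured on all arrays, normexp background correction (offset 50) of the median signals, the authors' values, other filters, blocks, fits restricted to a pair and leaving out each array.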

Additional observations from a re-analysis of the deposited data

How the results depend on the processing

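CR2 was higher in B than in every other subset under each alternative run. With the median as zero the CR2 level was 6.70 (B), 1.27 (MoDC), 0.16 (pDC), 0.032 (cDC2), -1.42 (MP) and -3.12 (cDC1). With the percentile over probes measured on all arrays it was 2.71 in B, -3.79 in pDC, -3.28 in MoDC, -3.86 in cDC2 and -7.09 in cDC1. Both settings move the zero itself, and over all settings the median difference of all genes in a pair moved by up to 0.50. The B level was 4.40 with quantile normalization, 3.93 with normexp and 4.17 with the authors' values, shifts beyond its small spread. In cDC1 the level was -0.20 with normexp and -3.94 with the authors' values. Normexp made cDC1 the highest array outside B, and on that array it left an SD over probes of 0.87, against 1.75 to 2.43 on the others. B minus MP was 5.92 with normexp, 10.38 within slide 1, 5.51 within slide 3 and 7.18 to 9.63 when arrays were left out in turn. B minus cDC1 was 4.13 with normexp and 8.11 with the authors' values.

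Between subsets other than B, MP minus MoDC passed the threshold with median centring (-2.69, limma adjusted p = 0.047) and with slide as a block (-2.42). It was -1.55 with the authors' values, -0.62 with normexp and had an adjusted p of 0.24 with only the arrays of the pair. With normexp pDC minus MP was 0.36, MP minus cDC2 -0.21, pDC minus MoDC -0.26 and MoDC minus cDC2 0.41, none of them called. pDC minus cDC2 was -0.0089 with slide as a block. With arrays left out in turn it was -0.38 to 0.60, MoDC minus cDC2 was 0.21 to 1.32, pDC minus MoDC -1.26 to -0.18, MP minus MoDC was -3.81 to -1.35, pDC minus MP 0.63 to 3.09, MP minus cDC2 -3.06 to -0.61, with limma calls for pDC against MP and MP against cDC2 only where MP replicate 3 was left out. The fit with the replicate number as a block gave the same CR2 differences and no CR2 call: -2.42 for MP minus MoDC, 1.70 for pDC minus MP and 0.025 for pDC minus cDC2. Of the 5 probes most like CR2, 2 were among the 20 most like it with normexp and 3 with Spearman's rank correlation. The cause of these changes was not tested.

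The number of genes called moved by over 1.5 times in 21 of 260 combinations of pair and setting. With slide as a block it fell for the pairs with cDC2, whose arrays share a slide only with B replicate 4 and cDC1: from 2618 to 939 for B, 2285 to 426 for pDC, 1271 to 98 for MP and 3782 to 939 for MoDC. With normexp it was 652 against 1043 for B and pDC, 1728 against 2744 for B and MP, 1672 against 2618 for B and cDC2, 1899 against 2932 for pDC and MP, 1471 against 2285 for pDC and cDC2, 818 against 1271 for MP and cDC2 and 2440 against 3782 for MoDC and cDC2. With only the arrays of the pair it was 2328 against 3727 for pDC and MoDC, 1334 against 2925 for MP and MoDC and 2346 against 1271 for MP and cDC2. Leaving out 1 array gave 638 to 1922 for MP and cDC2 and 642 for B and pDC without pDC replicate 1. The list of B cell genes had no named member to recompute. Signals near background limit the order of the dim subsets.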
